A study of Mus musculus with 9 samples.

Results

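The comparison described here set spinal cords of contused mice given FIPI, 5-fluoro-2-indolyl des-chlorohalopemide, against spinal cords of contused mice given the vehicle alone. It used 6 of the 9 sequenced samples of the study, 3 in the SCI group and 3 in the SCI+FIPI group, chosen by their labels. Each numbered sample is called a mouse here, although the sources used here do not state that each came from a single animal. The animals were adult female C57BL/6N mice and were killed on day 7 after surgery. The SCI group had its cord contused at T10 and was given dimethyl sulfoxide into the peritoneum. The SCI+FIPI group was contused by the same procedure and was injected with FIPI by the same route every day. The 3 mice of the Sham group had the laminectomy alone. RNA was sequenced from a whole cord segment around the epicenter, so each value is an average over every cell type in that piece, and fewer cells of a type cannot be told apart from less RNA per cell. The hour at which each mouse was killed is not given in the sources used here.

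Phospholipase D enzymes cut phosphatidylcholine at cell membranes into choline and phosphatidic acid, a lipid that recruits proteins to membranes and takes part in vesicle traffic and in the movement and secretion of leukocytes. FIPI blocks the catalytic activity of PLD1 and PLD2. A contused cord loses neurons and axons at the epicenter and fills with activated microglia and with macrophages from the blood, which clear myelin debris and present antigen.

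The deposited counts of the 6 injured mice summed to between 22364964 and 24582377 reads per mouse. Of 52550 genes, 18699 had enough counts to be tested. The biological coefficient of variation within groups was 9.3%. On the first principal component of the 6 injured mice, which held 36.3% of their variance, SCI mice 1, 2 and 3 scored -4.90, -25.6 and -32.0 and SCI+FIPI mice 1, 2 and 3 scored 14.8, 27.4 and 20.3, so the groups did not overlap and SCI mouse 1 lay nearest to the treated mice. Defining markers of spinal cord were abundant in every injured mouse: the myelin gene Mbp stood at 15764, 15367 and 14266 counts per 1000000 reads (CPM) in SCI mice 1, 2 and 3 and at 14308, 16402 and 17401 CPM in SCI+FIPI mice 1, 2 and 3, and the astrocyte gene Gfap had 10020, 10023 and 8818 CPM in SCI mice and 8476, 9080 and 9086 CPM in SCI+FIPI mice. Neither differed past the limits, with log2 fold changes of 0.08 and -0.12, and CPM is the unit of level throughout.

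A gene was called when its log2 fold change, SCI+FIPI minus SCI, was at least 0.5 in either direction and its adjusted p (edgeR's quasi-likelihood test, Benjamini-Hochberg) was under 0.05. By that rule 572 genes, or 3.06% of those tested, differed between the injured groups. Of these, 442 (2.36% of genes tested) were higher with FIPI and 130 (0.695%) were lower. Across all genes tested the median log2 fold change was -0.00135, and 9292 genes had a higher and 9407 a lower level with FIPI. The typical called gene moved little: the median log2 fold change was 0.62 among those called higher and -0.64 among those called lower, and 65 passed 1 in either direction. The groups were fully apart in 570 of the 572 called genes, and in 5647 (30.2%) of all genes tested. Separation is therefore nearly implied by a call and adds little to it where it is stated for single called genes below. By gene type, 395 of the genes called higher and 122 of those called lower were protein-coding, 15 and 4 were lincRNAs, and 13 and 3 were antisense transcripts.

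**Figure D1:**
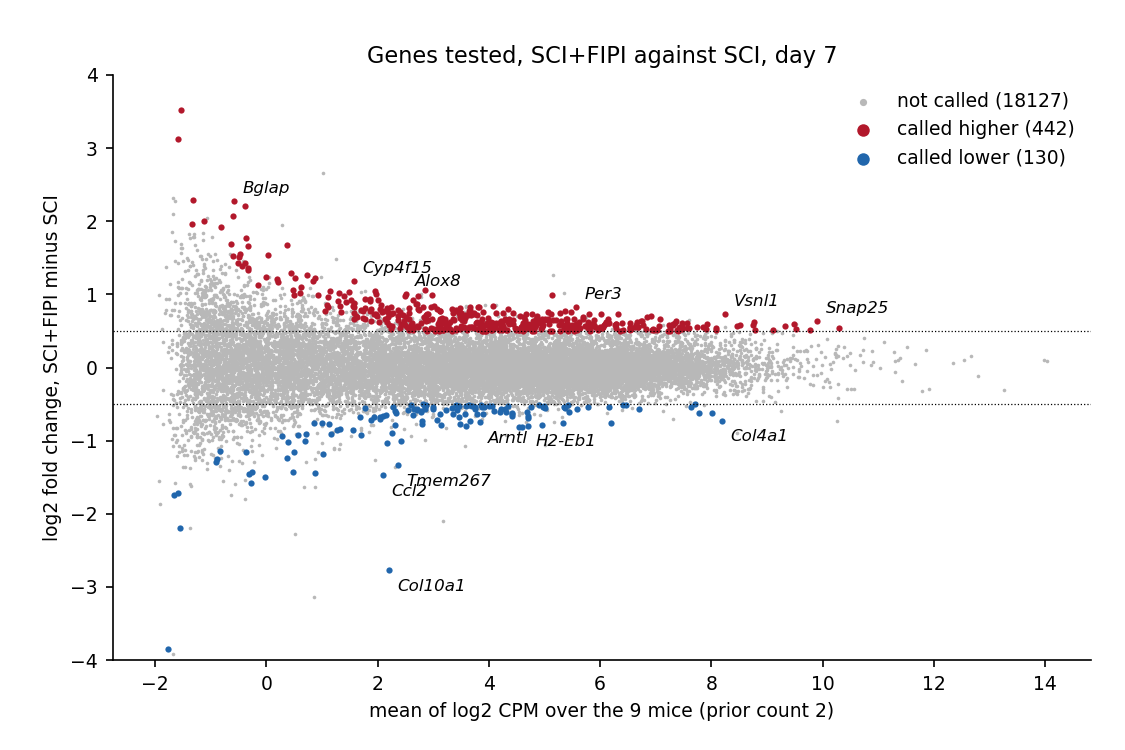
Each point is 1 of the 18699 genes tested; the horizontal axis is the mean of log2 CPM over the 9 mice and the vertical axis the log2 fold change, SCI+FIPI minus SCI. The 442 genes called higher (red) run along the upper dotted line at 0.5 up to the most abundant transcripts, such as Snap25, while the 130 called lower (blue) include Col10a1 at -2.77.

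How much each mouse weighed on these counts was examined by leaving out 1 mouse at a time. Without SCI mouse 1 the count rose to 1038 (781 higher and 257 lower), and without SCI+FIPI mouse 1 it was 584 (375 and 209). It fell to 341 (287 and 54) without SCI mouse 2, to 240 (184 and 56) without SCI mouse 3, to 189 (166 and 23) without SCI+FIPI mouse 2, and to 483 (419 and 64) without SCI+FIPI mouse 3. Of the 572 genes, 122 were called in all 6 of these fits and 77 in 5, while 220 were called in fewer than 3. None of the 572 changed sign in any of them. That was nearly fixed beforehand, because the groups were fully apart in 570 of these genes, so it says little about their stability. The 122 included Per3, Nr1d2, Grm5, Gad1, Gad2, Syt1, Pclo, Arntl and H2-Eb1, and these genes are described with their values in what follows.

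**Figure D2:**
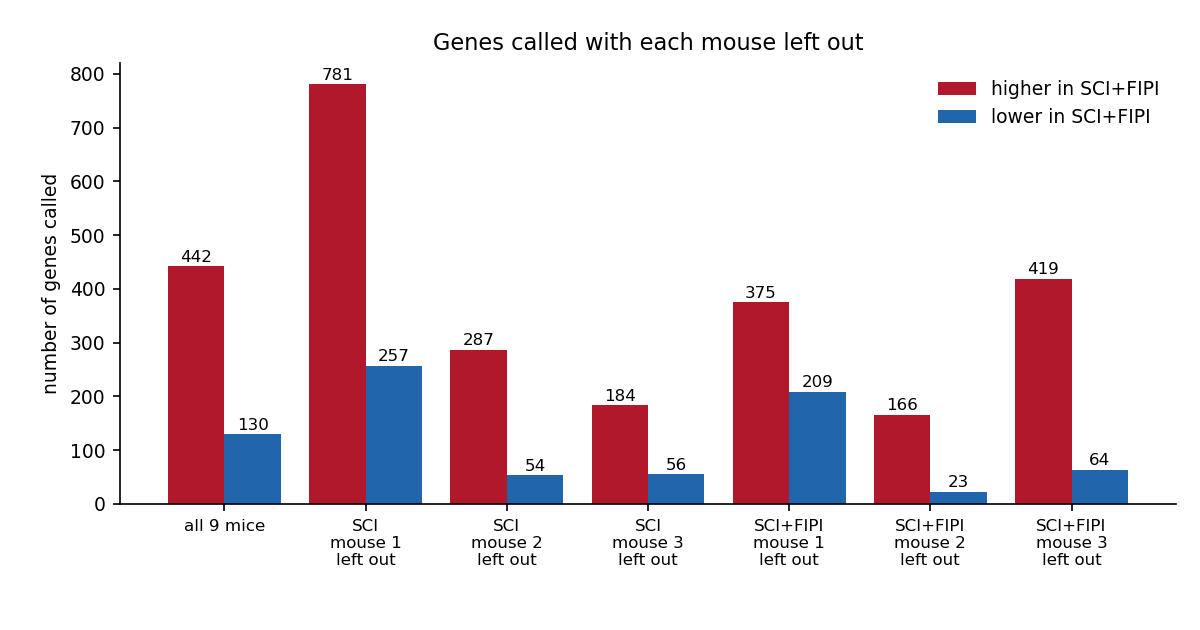
Bars give the number of genes called higher and lower in SCI+FIPI against SCI in the fit with every mouse and in the 6 fits that leave out 1 injured mouse. The lowest total, 189, is the fit lacking SCI+FIPI mouse 2 and the highest, 1038, that lacking SCI mouse 1, with genes called higher in the majority throughout.

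Genes were grouped in 65 lists by cell type, pathway or complex. The 14 lists of neuronal genes held 369 tested genes, of which 69 (18.7%) were called higher and 1 was called lower, against 2.36% and 0.695% of all genes. Their median log2 fold change was 0.33 and 298 of the 369 had a higher level with FIPI. The 17 immune lists held 355 tested genes, of which 22 (6.20%) were called lower and 1 was called higher, with a median of -0.30 and a lower level in 296. The 6 lists of glial genes, with 140 tested genes, had 2 called lower and a median of -0.03. Both main groups depended on the mice compared. The count of neuronal genes called higher was 121 without SCI mouse 1, 26 without SCI mouse 3 and 27 without SCI+FIPI mouse 2. The count of immune genes called lower was 43 without SCI mouse 1, 8 without SCI mouse 2 or SCI mouse 3, 12 without SCI+FIPI mouse 3 and 3 without SCI+FIPI mouse 2.

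**Figure D3:**
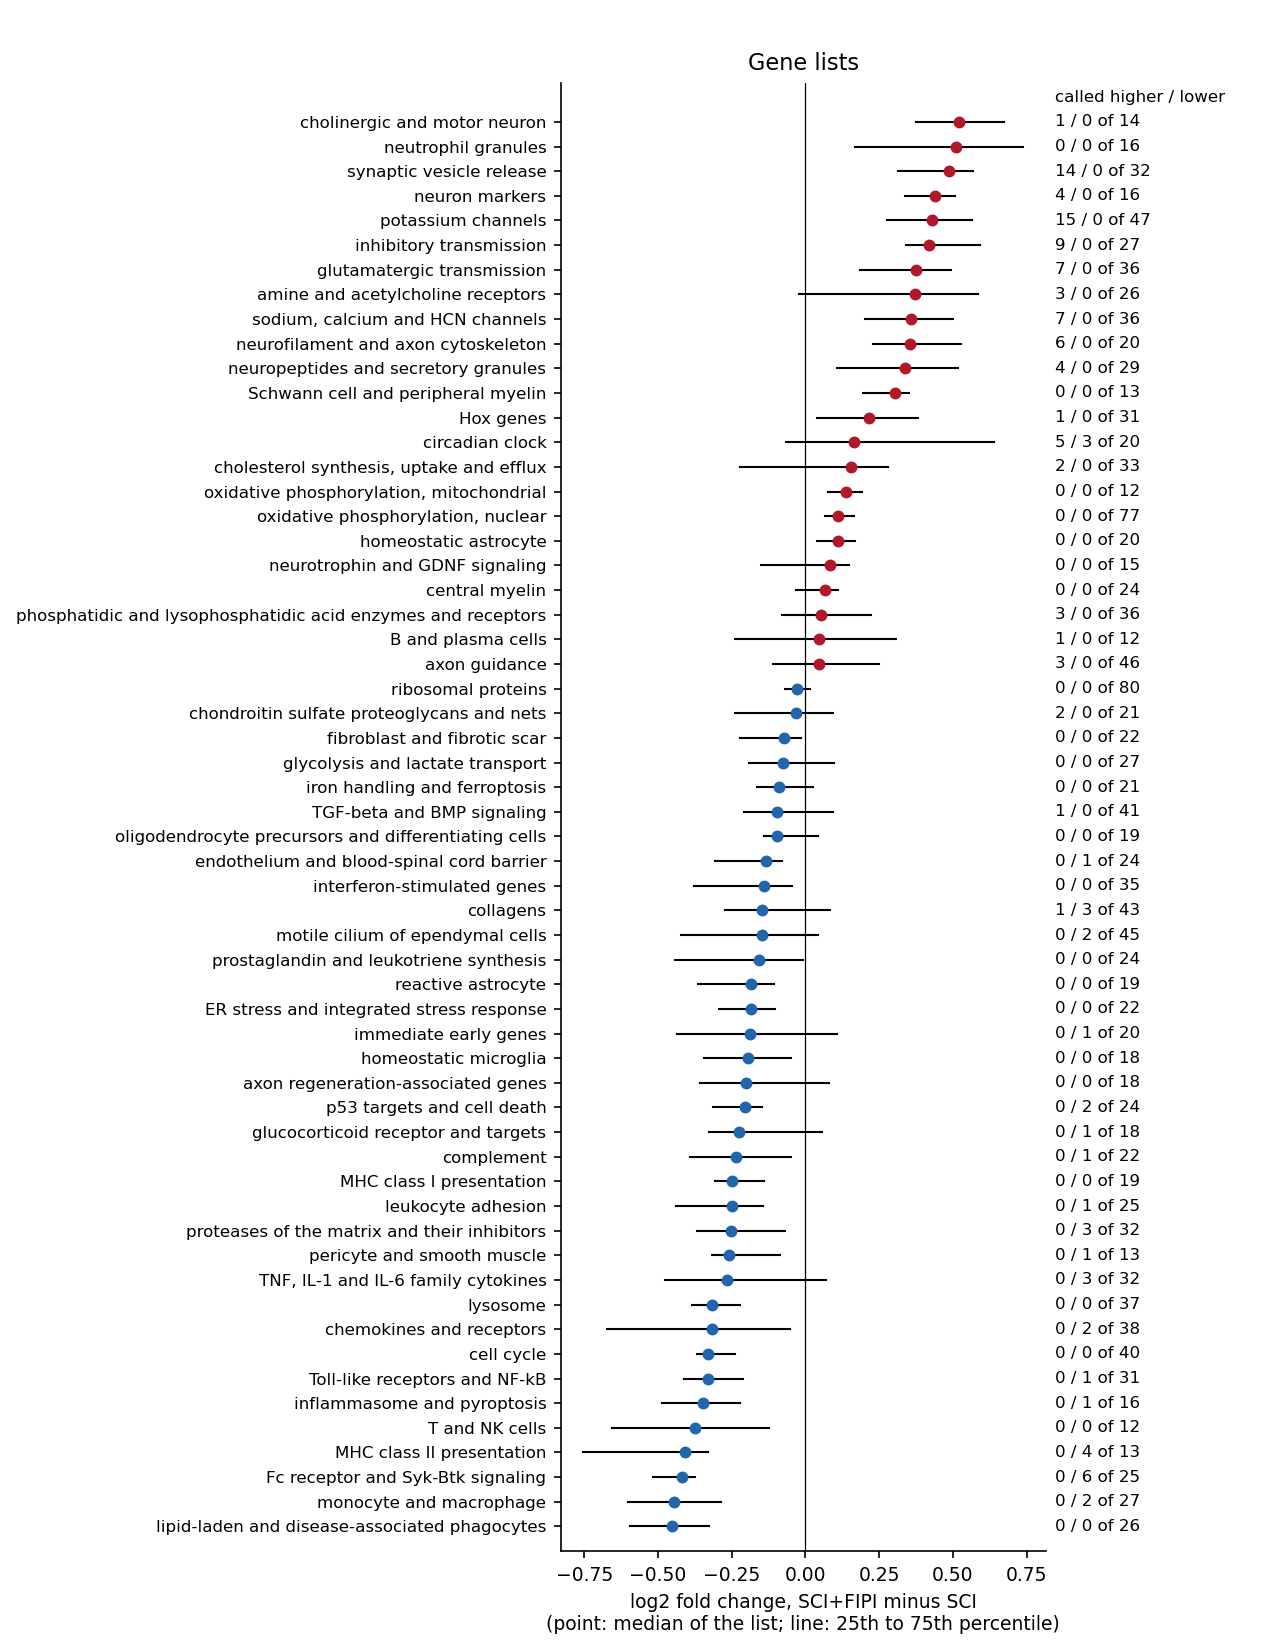
Each row is a gene list with at least 12 tested genes; the point is the median log2 fold change, SCI+FIPI minus SCI, the line is the interquartile range of the list's genes, and the numbers count genes called higher and lower. Lists of synaptic and channel genes lie on the right, with medians up to 0.49, and lists of phagocyte genes on the left, with medians down to -0.45. The highest medians, 0.52 and 0.51, are those of cholinergic genes and neutrophil granule genes, with 1 and 0 called.

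The largest rises, sought among called genes whose groups did not overlap and whose mean log2 CPM reached 1, were mostly of low abundance. Cyp4f15, a cytochrome P450 of the fatty acid hydroxylase family that has close copies in the genome, led them. It lies on chromosome 17 and had 2.01, 1.49 and 1.18 CPM in SCI mice and 4.202, 2.797 and 3.65 CPM in SCI+FIPI mice (log2 fold change 1.18 ± 0.23 (SE), adjusted p = 0.00854). Alox8, a lipoxygenase that oxidises arachidonic acid, had 2.94, 2.65 and 2.95 CPM in SCI mice and 4.74, 6.74 and 5.58 CPM in SCI+FIPI mice (log2 fold change 1.00 ± 0.15 (SE), adjusted p = 0.00307). That every treated mouse lay above every vehicle mouse was required by the choice of these genes. Both calls were made in all 6 fits that left out a mouse. Trpc5, a receptor-operated cation channel of neurons, rose by 1.04 on the log2 scale. The zinc-finger gene Zkscan16 rose by 0.99, the SOCS-box gene Asb16 by 0.97, the developmental gene Mab21l2 by 0.92 and the nucleotide sugar transporter family member Slc35d3 by 0.92. All 5 were called in those same 6 fits. The receptor gene Gpr139 (1.05) lost its call in all of them but that without SCI mouse 1. Tmem203 (0.96, not called without SCI+FIPI mouse 2) overlaps Ndor1 on the opposite strand, and reads of such a pair cannot be assigned with certainty because the strand setting of the counting is not given in the sources used here. The same doubt holds for Mab21l2, which overlaps Lrba, for Trpc5, which overlaps Trpc5os, and for the 257 of 572 called genes (44.9%) with any annotated gene on the opposite strand, against 8232 of the 18699 tested. Among called genes named here, Tmem267, Gabra5, Ina, Kcnh1, Dnah11, Stab1, Mmp11 and Ly9 also overlap a tested protein-coding gene in this way.

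Among the genes with the largest falls, Col10a1, type X collagen of hypertrophic cartilage, had 65.9, 69.8 and 80.4 CPM in SCI mice and 14.8, 13.1 and 4.03 CPM in SCI+FIPI mice (log2 fold change -2.77 ± 0.42 (SE), adjusted p = 0.0131). The lack of overlap between the groups was again required by the choice, and the third treated mouse was the lowest. In Sham mice 1, 2 and 3 Col10a1 stood at 0.192, 0.0432 and 0 CPM, with a log2 fold change of 9.83 in SCI minus Sham. The call was lost without SCI mouse 3 or without SCI+FIPI mouse 2, and Col10a1 overlaps Nt5dc1 on the opposite strand. Rasl11a, a small GTPase of the Ras family, had 6.88, 10.7 and 7.26 CPM in SCI mice and 4.02, 3.48 and 4.61 CPM in SCI+FIPI mice (log2 fold change -1.03). Zfp366, a zinc-finger corepressor, had 13.3, 18.2 and 15.7 CPM in SCI mice and 8.67, 9.37 and 9.06 CPM in SCI+FIPI mice (log2 fold change -0.80). These calls were made whichever mouse was left out. Tmem267 fell by 1.33 and Fam216b by 1.18 on the log2 scale, and each lost its call without SCI+FIPI mouse 2. Col10a1 was the only gene of this set on the cartilage list, where 19 genes were tested and the osteoblast product Bglap was called higher (2.28) from levels of 0.377, 0.331 and 0.3797 CPM in SCI mice and 0.983, 2.16 and 2.18 CPM in SCI+FIPI mice; the call of Bglap was made only in the fit without SCI+FIPI mouse 1 among the 6.

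By p-value the rises were led by Grm5, the clock genes Nr1d2 and Per3, and Pnmal1, Dennd6b and AI593442. Pnmal1 had 20.8, 16.5 and 18.3 CPM in SCI mice and 30.8, 32.5 and 30.8 CPM in SCI+FIPI mice (log2 fold change 0.76 ± 0.08 (SE), adjusted p = 0.00089). Dennd6b, which regulates Rab GTPases, had 48.9, 49.9 and 44.1 CPM in SCI mice and 69.6, 69.04 and 69.04 CPM in SCI+FIPI mice (log2 fold change 0.54 ± 0.06 (SE), adjusted p = 0.0012). The call of Dennd6b was lost without SCI mouse 3. On the lower side H2-Eb1 had the smallest p and was the only one of the 6 to reach the fold limit. The other 5 had small, tight differences below that limit: Dtx4 (-0.49), Csf2ra, the receptor subunit for GM-CSF (-0.44), Uhrf2 (-0.41), Afap1l2 (-0.41) and Arap1 (-0.39), with adjusted p between 0.00303 and 0.00404. For Csf2ra the SCI mice had 169, 180 and 189 CPM and the SCI+FIPI mice 132, 123 and 142 CPM, so that the groups were apart although no call was made.

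Of 32 tested genes of synaptic vesicle release at the presynaptic terminal, 14 were called higher with FIPI, none was called lower and 18 were not called, with a list median of 0.49. Doc2a, a calcium sensor of transmitter release, had 3.19, 3.14 and 2.74 CPM in SCI mice and 6.84, 6.44 and 4.698 CPM in SCI+FIPI mice (log2 fold change 0.98 ± 0.17 (SE), adjusted p = 0.00487). Pclo, a scaffold of the active zone, had 31.5, 28.4 and 24.4 CPM in SCI mice and 45.95, 47.9 and 43.1 CPM in SCI+FIPI mice (log2 fold change 0.70 ± 0.08 (SE), adjusted p = 0.00156). The vesicle-associated GTPase gene Rab3c had 66.6, 58.2 and 51.1 CPM in SCI mice and 93.6, 95.2 and 83.4 CPM in SCI+FIPI mice (log2 fold change 0.63). In all 3 genes the lowest treated mouse stood above the highest vehicle mouse. Doc2a, Pclo, Rab3c and the calcium sensor gene Syt1 (0.59) were called in every fit that left out a mouse, whereas others depended on single mice. Snap25, a SNARE of vesicle fusion (0.63), lost its call without SCI mouse 2, SCI mouse 3, SCI+FIPI mouse 1 or SCI+FIPI mouse 2. Vamp1 (0.60), which overlaps other genes on the opposite strand, kept it only without SCI mouse 1. Doc2a overlaps Ino80e on the opposite strand. The list count itself was 5 without SCI mouse 3 or SCI+FIPI mouse 2, 8 without SCI+FIPI mouse 1 and 19 without SCI mouse 1.

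General neuron markers and genes of the axonal cytoskeleton also gave calls. Of 16 neuron markers 4 were called higher, Snap25, Rbfox3, Syt1 and Elavl4, and all 16 had a higher level, with a median of 0.44. The count was 7 without SCI mouse 1, 6 without SCI+FIPI mouse 3, 1 without SCI mouse 3 and 2 without SCI+FIPI mouse 2. Rbfox3, which encodes the nuclear marker NeuN, had 69.1, 61.7 and 50.1 CPM in SCI mice and 90.3, 99.1 and 88.2 CPM in SCI+FIPI mice (log2 fold change 0.62 ± 0.10 (SE), adjusted p = 0.00487) and lost its call only without SCI mouse 3. Of 20 cytoskeletal genes 6 were called higher and all 20 had a higher level, with a median of 0.35. Nefl, the light neurofilament chain, had 446, 398 and 326 CPM in SCI mice and 526, 659 and 548 CPM in SCI+FIPI mice (log2 fold change 0.57 ± 0.12 (SE), adjusted p = 0.0133). Its neighbour Nefm (0.54) overlaps it on the opposite strand, so reads of the pair may be shared. No SCI mouse reached the lowest treated mouse for Nefl, but that call was lost without SCI mouse 3 or SCI+FIPI mouse 2, and the count for the cytoskeletal list fell to 0 in both of those fits and to 3 without SCI mouse 2. For Ina, the internexin of axons (0.53), the same 2 mice decided the call.

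In inhibitory transmission 9 of 27 tested genes were called higher and none lower, with a median of 0.42. Both enzymes that make GABA rose. Gad1 had 52.5, 43.6 and 39.7 CPM in SCI mice and 67.8, 71.2 and 66.5 CPM in SCI+FIPI mice (log2 fold change 0.60 ± 0.08 (SE), adjusted p = 0.00205). Gad2 had 24.5, 24.3 and 19.5 CPM in SCI mice and 33.1, 40.7 and 32.002 CPM in SCI+FIPI mice (log2 fold change 0.63). The glycine receptor subunit gene Glra3 had 3.77, 3.23 and 4.09 CPM in SCI mice and 5.95, 5.89 and 7.89 CPM in SCI+FIPI mice (log2 fold change 0.83 ± 0.15 (SE), adjusted p = 0.00553). Treated and vehicle mice did not overlap for any of the 3. The GABA-A receptor subunit gene Gabra5 (0.75) was among the others called. Gad1, Gad2 and Glra3 were called in all 6 fits that left out a mouse, and Gabra5 in all but that without SCI+FIPI mouse 2, in which the list count was 5. Slc6a5, the glycine transporter of glycinergic terminals and chosen here after its values were seen, overlapped between groups at 125, 159.6 and 96.02 CPM in SCI mice and 168, 176 and 137 CPM in SCI+FIPI mice and had a log2 fold change of 0.34 (adjusted p = 0.379).

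On the excitatory side 7 of 36 genes of glutamatergic transmission were called higher and none lower, with a median of 0.37. Grm5, a metabotropic glutamate receptor, had the smallest p of all genes tested. It had 20.5, 19.4 and 23.1 CPM in SCI mice and 36.5, 35.1 and 34.02 CPM in SCI+FIPI mice (log2 fold change 0.74 ± 0.07 (SE), adjusted p = 0.000576). The NMDA receptor subunit gene Grin2a had 16.3, 11.8 and 12.1 CPM in SCI mice and 24.2, 21.3 and 21.5 CPM in SCI+FIPI mice (log2 fold change 0.74). Another, Grin2b, had 20.1, 14.3 and 13.8 CPM in SCI mice and 25.7, 25.7 and 25.1 CPM in SCI+FIPI mice (log2 fold change 0.67). Each group was tight and the groups were apart for all 3 receptors, which were called whichever mouse was left out. Grin1, the obligate NMDA receptor subunit (0.56), lost its call without SCI mouse 3. The vesicular glutamate transporter of spinal neurons, Slc17a6, had 46.7, 50.4 and 37.7 CPM in SCI mice and 66.5, 65.2 and 56.2 CPM in SCI+FIPI mice and stayed just under the fold limit (log2 fold change 0.48, adjusted p = 0.0215). This list's count was 3 without SCI mouse 3 and 15 without SCI mouse 1.

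Potassium channel genes gave more calls than any other list, though not the highest share. Of 47 potassium channel genes and their partners 15 (31.9%) were called higher and none lower, with a median of 0.43. The share called was 43.8% in synaptic vesicle release, and 2.36% of all genes tested were called higher. Kcnb2, a delayed rectifier, had 3.77, 2.605 and 2.405 CPM in SCI mice and 4.78, 5.13 and 5.54 CPM in SCI+FIPI mice (log2 fold change 0.81 ± 0.17 (SE), adjusted p = 0.0103). Kcnab1, an auxiliary subunit, had 36.6, 32.6 and 24.6 CPM in SCI mice and 49.1, 58.7 and 48.2 CPM in SCI+FIPI mice (log2 fold change 0.73 ± 0.13 (SE), adjusted p = 0.0112). Kcnj3, a G protein-gated inward rectifier, had 14.8, 13.3 and 12.8 CPM in SCI mice and 21.7, 21.997 and 18.5 CPM in SCI+FIPI mice (log2 fold change 0.61). No vehicle mouse reached a treated mouse for these 3, and their calls held in every fit that left out a mouse. Kcnip2 (0.67) lost its call without SCI+FIPI mouse 2, Kcnh1 (0.63) without that mouse or SCI mouse 3, and the count was 4 without either of those 2 mice and 22 without SCI mouse 1. Kcna1, the first gene on the list, was not called (0.38, adjusted p = 0.221), with 65.2, 66.4 and 49.2 CPM in SCI mice and 78.1, 88.5 and 68.8 CPM in SCI+FIPI mice. Among 36 sodium, calcium and HCN channel genes 7 were called higher, with a median of 0.36. Scn1a, a sodium channel of fast-spiking cells, had 73.2, 65.7 and 49.02 CPM in SCI mice and 107, 112 and 87.3 CPM in SCI+FIPI mice (log2 fold change 0.70 ± 0.16 (SE), adjusted p = 0.0359) and was not called without SCI mouse 2, SCI+FIPI mouse 1 or SCI+FIPI mouse 2, whereas the calcium channel genes Cacna1e (0.59) and Cacna2d3 (0.58) were called in all 6 fits. That count fell to 3 without SCI mouse 3 or SCI+FIPI mouse 2, to 4 without SCI mouse 2 or SCI+FIPI mouse 1, and rose to 14 without SCI mouse 1 and to 11 without SCI+FIPI mouse 3.

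The neuropeptide, cholinergic, axon guidance and perineuronal net lists gave between 1 and 4 calls each. Of 29 neuropeptide and secretory granule genes 4 were called higher, Calcb, Pcsk2, Chga and Tac2. Pcsk2, the prohormone convertase of neurons, had 29.7, 24.4 and 21.2 CPM in SCI mice and 37.9, 43.7 and 37.7 CPM in SCI+FIPI mice (log2 fold change 0.66 ± 0.10 (SE), adjusted p = 0.00412) and was called in all 6 fits without a mouse, while Chga (0.63), Calcb (0.75) and Tac2 (0.61) each lost the call without SCI mouse 2 or SCI+FIPI mouse 2 and in at least 1 other fit. The substance P gene Tac1 overlapped between groups and had a log2 fold change of 0.12. Chrm2, the muscarinic receptor of motor neurons, was the only one called of 14 cholinergic genes (0.71), and it lost the call without SCI mouse 2, SCI mouse 3, SCI+FIPI mouse 1 or SCI+FIPI mouse 2. Chat, which makes acetylcholine, had 14.8, 8.104 and 7.97 CPM in SCI mice and 11.6, 16.9 and 12.7 CPM in SCI+FIPI mice and overlapped between the groups (0.41, adjusted p = 0.393), although the list's median of 0.52 was the highest of all lists drawn. Efna3 (0.75), Epha8 (0.75) and Unc5d (0.67) were the 3 called of 46 axon guidance genes. Epha8, an ephrin receptor, had 12.3, 10.2 and 12.3 CPM in SCI mice and 16.1, 18.3 and 24.3 CPM in SCI+FIPI mice, apart in every mouse, and its call held in all 6 fits; Efna3 and Unc5d lost theirs without SCI+FIPI mouse 2. Perineuronal net link proteins Hapln1 (0.66) and Hapln4 (0.64) were the 2 called of 21 genes of chondroitin sulfate proteoglycans and nets, and both lost the call without SCI+FIPI mouse 2, Hapln4 also without SCI mouse 3 or SCI+FIPI mouse 1.

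Genes that name kinds of spinal neurons and some broader neuronal genes were also among those called. The ones in this paragraph are outside the lists and were chosen after their values were seen. Lbx1, a transcription factor of dorsal horn neurons, had 6.29, 5.62 and 6.37 CPM in SCI mice and 11.04, 8.48 and 11.95 CPM in SCI+FIPI mice (log2 fold change 0.78 ± 0.13 (SE), adjusted p = 0.00487). Pou4f1 (0.86), Bcl11a (0.77) and Ebf3 (0.67), which are further neuronal transcription factors, were called higher as well. Among calcium-binding proteins of interneurons, Pvalb had 26.7, 24.1 and 20.2 CPM in SCI mice and 36.5, 40.6 and 35.4 CPM in SCI+FIPI mice (log2 fold change 0.66 ± 0.10 (SE), adjusted p = 0.00243) and Calb1 had 11.8, 7.57 and 9.197 CPM in SCI mice and 16.05, 15.3 and 16.7 CPM in SCI+FIPI mice (log2 fold change 0.75). The neuronal calcium sensor Vsnl1 was the most abundant of this set, with 174, 160.3 and 134 CPM in SCI mice and 258, 275 and 241 CPM in SCI+FIPI mice (log2 fold change 0.73 ± 0.09 (SE), adjusted p = 0.00156). For every gene of this paragraph the groups did not overlap and the call was made in all 6 fits that left out a mouse. Because they were chosen with their values known, this does not show how often such genes keep a call. Of all 572 called genes, 122 were called in all 6 fits.

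**Figure D4:**
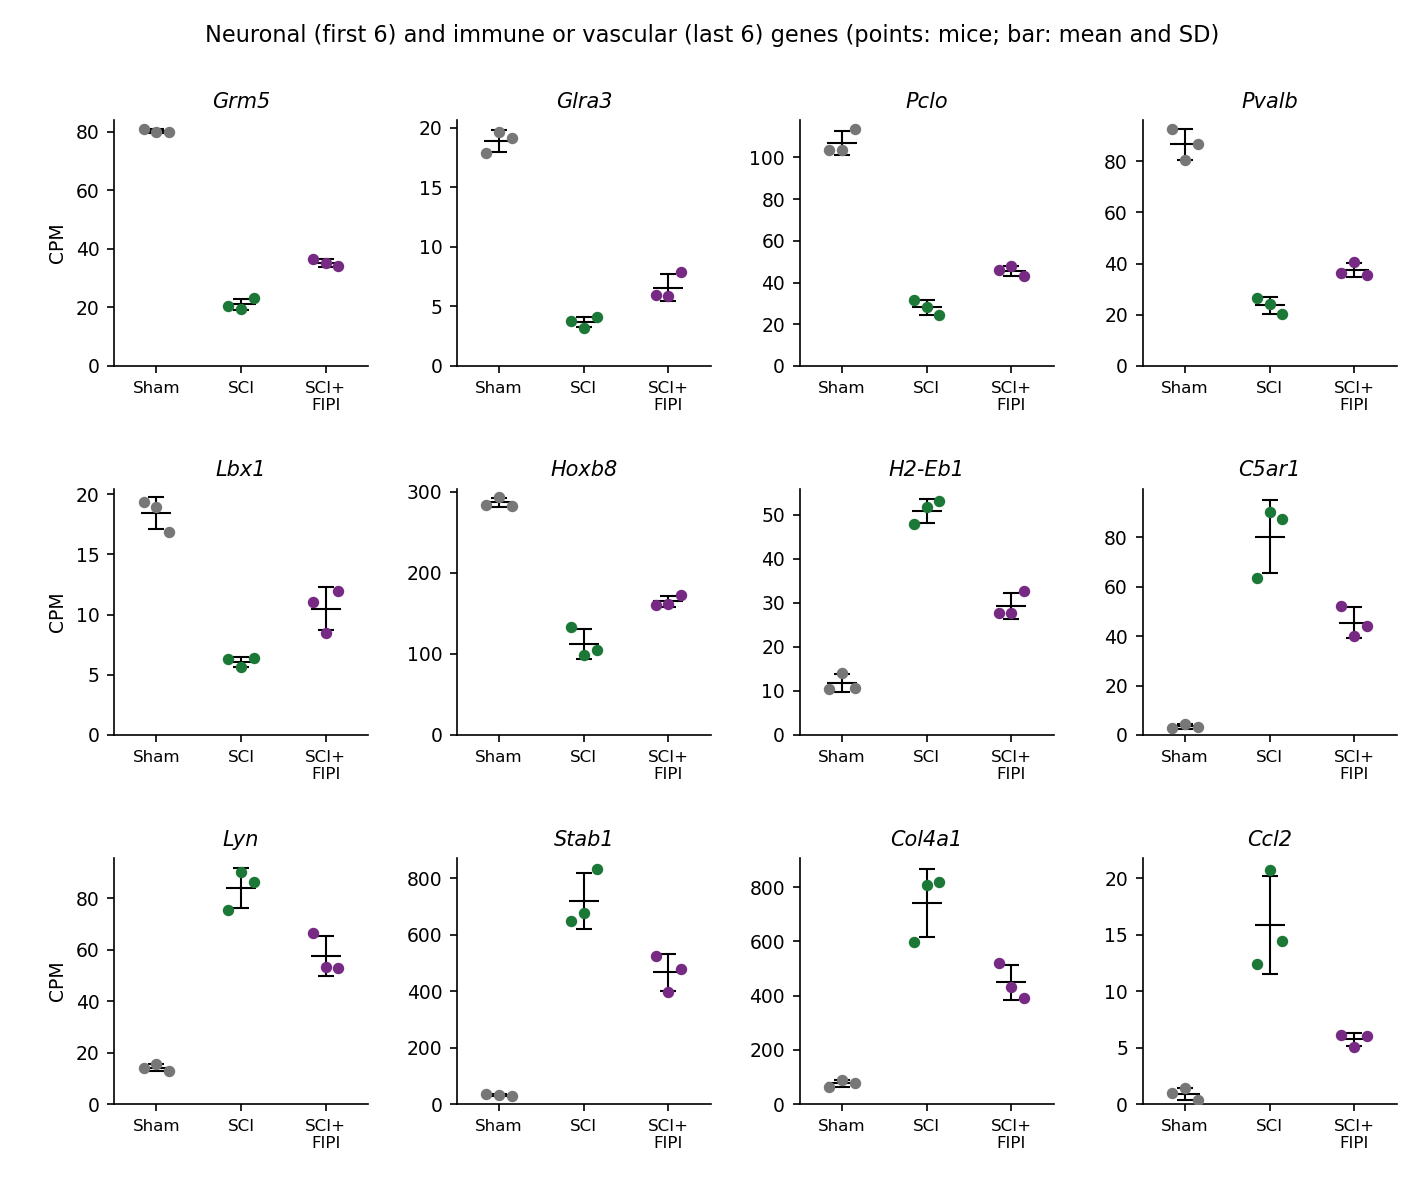
Points are CPM in single mice of the 3 groups, with the mean and SD of each group, for 6 neuronal and 6 immune or vascular genes. For Grm5 the treated mice (34.0 to 36.5) lie between the SCI mice (19.4 to 23.1) and the Sham mice, and for H2-Eb1 they lie below the SCI mice (27.6 to 32.7 against 47.8 to 53.1).

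Levels were also set against the Sham mice, which both injured groups share as controls here. The log2 fold change of Snap25 was -1.96 in SCI minus Sham and -1.32 in SCI+FIPI minus Sham, that of Grm5 was -1.93 and -1.19, and that of Gad1 was -1.78 and -1.18. Averaged over the 369 neuronal genes as log2(CPM + 0.5) relative to the Sham mean, SCI mice 1, 2 and 3 stood at -0.67, -0.74 and -0.86 and SCI+FIPI mice 1, 2 and 3 at -0.52, -0.46 and -0.51. The treated mice were closer to Sham than every vehicle mouse on this average. It covers lists that lay on the other side of Sham, since in every injured mouse the 20 immediate early genes averaged between 0.28 and 0.96 above Sham and the 18 axon regeneration-associated genes between 0.80 and 1.08 above it. The same average over the 355 immune genes was 1.497, 1.719 and 1.572 in the SCI mice and 1.310, 1.309 and 1.413 in the SCI+FIPI mice.

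Genes of neuronal activity and of the injury response of axons were not among the rises. Of 20 immediate early genes 1 was called, Nr4a3, an orphan nuclear receptor, which was lower with FIPI (log2 fold change -1.01 ± 0.24 (SE), adjusted p = 0.022). It had 7.13, 9.26 and 6.92 CPM in SCI mice and 3.26, 4.24 and 4.07 CPM in SCI+FIPI mice and lost the call without SCI mouse 2 or without any single SCI+FIPI mouse. Fos had 34.3, 84.1 and 78.6 CPM in SCI mice and 26.3, 23.4 and 44.5 CPM in SCI+FIPI mice. Fosb had 2.98, 13.98 and 13.8 CPM in SCI mice and 2.73, 3.69 and 5.49 CPM in SCI+FIPI mice. SCI mouse 1 lay below SCI+FIPI mouse 3 for both, and neither gene was called (adjusted p = 0.178 and 0.235). None of 18 axon regeneration-associated genes was called, and Atf3, which is induced in injured neurons, had 59.9, 70.9 and 74.8 CPM in SCI mice and 56.9, 42.2 and 46.4 CPM in SCI+FIPI mice (-0.50, adjusted p = 0.15). None of 15 neurotrophin and GDNF signaling genes was called, and Bdnf had a log2 fold change of -0.02.

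Glial lists gave few calls. No gene was called among 24 genes of central myelin (median 0.07), 19 of oligodendrocyte precursors and differentiating cells (-0.10), 20 of homeostatic astrocytes (0.11), 19 of reactive astrocytes (-0.18) or 18 of homeostatic microglia (-0.19). The microglial gene Tmem119 had 95.2, 92.8 and 91.1 CPM in SCI mice and 82.8, 88.9 and 86.4 CPM in SCI+FIPI mice (-0.11). P2ry12, another, had 23.8, 32.05 and 27.6 CPM in SCI mice and 29.2, 28.7 and 26.4 CPM in SCI+FIPI mice (0.01). Vim, an intermediate filament of reactive astrocytes and of other cells, had 1916, 2053 and 1986 CPM in SCI mice and 1678, 1560 and 1702 CPM in SCI+FIPI mice (-0.27, adjusted p = 0.0722), with the groups apart but no call. Of 45 genes of motile cilia, which ependymal cells carry, 2 were called lower. Dnah11, an axonemal dynein, had 2.5998, 2.27 and 3.16 CPM in SCI mice and 1.39, 0.721 and 0.839 CPM in SCI+FIPI mice (log2 fold change -1.45 ± 0.26 (SE), adjusted p = 0.00595). Hydin, of the central pair, had 3.27, 2.03 and 3.25 CPM in SCI mice and 1.65, 1.44 and 1.64 CPM in SCI+FIPI mice (-0.85). Dnah11 was called in every edgeR fit that left out a mouse and Hydin only in that without SCI mouse 2, and Foxj1, the regulator of motile cilia, had a log2 fold change of -0.10. Genes of Schwann cells spread widely among treated mice. The 13 Schwann cell genes summed to between 942.5 and 1099 CPM in the SCI mice and to 718.4, 1463 and 1446 CPM in SCI+FIPI mice 1, 2 and 3, and none was called.

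Circadian clock genes moved in both directions. The clock runs on a loop in which the activators, encoded by Arntl, Clock and Npas2, drive the Period and Cryptochrome repressors and the genes Nr1d1, Nr1d2, Dbp, Tef, Hlf and Ciart through E-box elements. Nr1d proteins and ROR proteins compete at ROR elements, which act on Arntl, Npas2 and Nfil3, and Nfil3 opposes Dbp, Tef and Hlf at D-box elements. Of 20 clock genes tested, 5 were called higher (Per3, Ciart, Hlf, Nr1d2 and Tef) and 3 lower (Npas2, Arntl and Nfil3). The stretches upstream of Per3, Ciart and Nfil3 are printed because each holds elements of a different limb of this loop. They are the 250 bases before the annotated start in RefSeq's GRCm38.p6, read on the gene's strand, with the letters of any motif found in capitals: D-box (TTATGTAA), E-box (CACGTG), ROR element (TAGGTCA) and CCAAT box (CCAAT), each searched on both strands.
Per3 (chr4:151044666-151044915, minus strand): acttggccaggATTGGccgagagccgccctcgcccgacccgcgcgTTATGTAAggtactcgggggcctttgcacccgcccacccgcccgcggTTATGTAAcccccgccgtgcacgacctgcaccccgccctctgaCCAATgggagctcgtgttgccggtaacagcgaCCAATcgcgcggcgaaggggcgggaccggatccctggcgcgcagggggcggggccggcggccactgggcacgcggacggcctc
Ciart (chr3:95882229-95882478, minus strand): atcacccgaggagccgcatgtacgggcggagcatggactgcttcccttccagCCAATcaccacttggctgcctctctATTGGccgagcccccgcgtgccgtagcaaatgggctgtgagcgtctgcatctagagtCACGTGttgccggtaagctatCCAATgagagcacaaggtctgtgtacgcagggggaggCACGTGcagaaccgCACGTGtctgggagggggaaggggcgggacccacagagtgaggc
Nfil3 (chr13:52981040-52981289, minus strand): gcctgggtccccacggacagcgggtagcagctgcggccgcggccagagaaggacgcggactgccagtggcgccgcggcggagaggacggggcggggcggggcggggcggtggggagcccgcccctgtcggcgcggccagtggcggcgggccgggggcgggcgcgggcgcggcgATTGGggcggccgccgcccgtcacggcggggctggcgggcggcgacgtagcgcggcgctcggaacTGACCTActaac

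In these windows Per3 holds D-boxes at 205 and 158 bases before the start, Ciart holds E-boxes at 116, 58 and 44, and Nfil3 holds a ROR element at 12. Shares of promoters were counted in the 300 bases from 250 before to 50 after the start. Of 13037 tested genes with a promoter in the RefSeq table, 0.759% had this D-box, 10.8% the E-box and 2.29% the ROR element. Among 304 promoters of genes called higher the counts were 6 (1.97%), 33 (10.9%) and 10 (3.29%). Among 93 of genes called lower they were 0, 5 (5.38%) and 6 (6.45%). The matches are descriptions of the letters and were not tested as binding sites. CCAAT boxes, which are widespread, were present in 42.2% of all these promoters.

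Per3 had 40.5, 31.1 and 32.99 CPM in SCI mice and 60.97, 62.6 and 61.3 CPM in SCI+FIPI mice (log2 fold change 0.82 ± 0.09 (SE), adjusted p = 0.000778), so that the lowest treated mouse stood well above the highest vehicle mouse. Ciart, a repressor of the clock activators, had 8.26, 8.601 and 7.05 CPM in SCI mice and 13.01, 14.9 and 12.96 CPM in SCI+FIPI mice (log2 fold change 0.77 ± 0.12 (SE), adjusted p = 0.00297). Hlf, a D-box activator, had 31.7, 25.3 and 28.2 CPM in SCI mice and 41.7, 47.9 and 54.8 CPM in SCI+FIPI mice (log2 fold change 0.76 ± 0.10 (SE), adjusted p = 0.00198). Nr1d2, the REV-ERB beta receptor, had 59.4, 52.6 and 47.8 CPM in SCI mice and 86.4, 91.97 and 87.996 CPM in SCI+FIPI mice (log2 fold change 0.74 ± 0.07 (SE), adjusted p = 0.000576). In each of these genes the groups were apart, and so they were for Tef, another D-box activator (0.54). On the lower side Arntl, the core activator BMAL1, had 15.1, 17.7 and 17.7 CPM in SCI mice and 9.61, 10.8 and 9.81 CPM in SCI+FIPI mice (log2 fold change -0.74 ± 0.13 (SE), adjusted p = 0.00595). Its partner Npas2 had 10.9, 15.4 and 13.9 CPM in SCI mice and 6.71, 8.18 and 8.72 CPM in SCI+FIPI mice (log2 fold change -0.77 ± 0.14 (SE), adjusted p = 0.00565). Nfil3, the D-box repressor, had 15.2, 18.7 and 17.6 CPM in SCI mice and 9.57, 10.6 and 11.95 CPM in SCI+FIPI mice (log2 fold change -0.68, adjusted p = 0.0163), again with no overlap. Per3, Ciart, Hlf, Nr1d2, Arntl and Npas2 were called whichever mouse was left out, whereas Tef lost its call without SCI mouse 3 and Nfil3 without SCI mouse 2, SCI mouse 3, SCI+FIPI mouse 1 or SCI+FIPI mouse 2.

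The other clock genes tested were not called. Clock itself had 50.3, 51.2 and 53.6 CPM in SCI mice and 50.02, 48.9 and 50.7 CPM in SCI+FIPI mice (-0.05), and Per1 (-0.27), Per2 (0.24) and Cry1 (0.03), which outside the naming rule were chosen after their values were seen, overlapped between the groups. Cry2 was apart at 54.7, 47.6 and 41.01 CPM in SCI mice and 62.4, 63.3 and 62.3 CPM in SCI+FIPI mice but under the fold limit (0.39, adjusted p = 0.0121). Dbp, a D-box activator with a strong daily rhythm, had 32.4, 20.6 and 19.2 CPM in SCI mice and 56.5, 53.7 and 62.7 CPM in SCI+FIPI mice (1.26, adjusted p = 0.0725), and it overlaps Sphk2 on the opposite strand. Vehicle and treated mice did not overlap for Dbp, and no call was made. Set beside Sham, Arntl and Npas2 had log2 fold changes of -0.04 and 0.06 in SCI minus Sham and of -0.78 and -0.71 in SCI+FIPI minus Sham, while Per3 had -0.52 and 0.31. The part of the time of day at death, which is not given for any mouse, was not tested. Glucocorticoid receptor targets, which follow the adrenal rhythm, had 1 gene called lower of 18, the kinase gene Sgk1 (-0.54), whose call was made only without SCI mouse 3 among the 6 fits; the receptor gene Nr3c1 had a log2 fold change of -0.03.

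**Figure D5:**
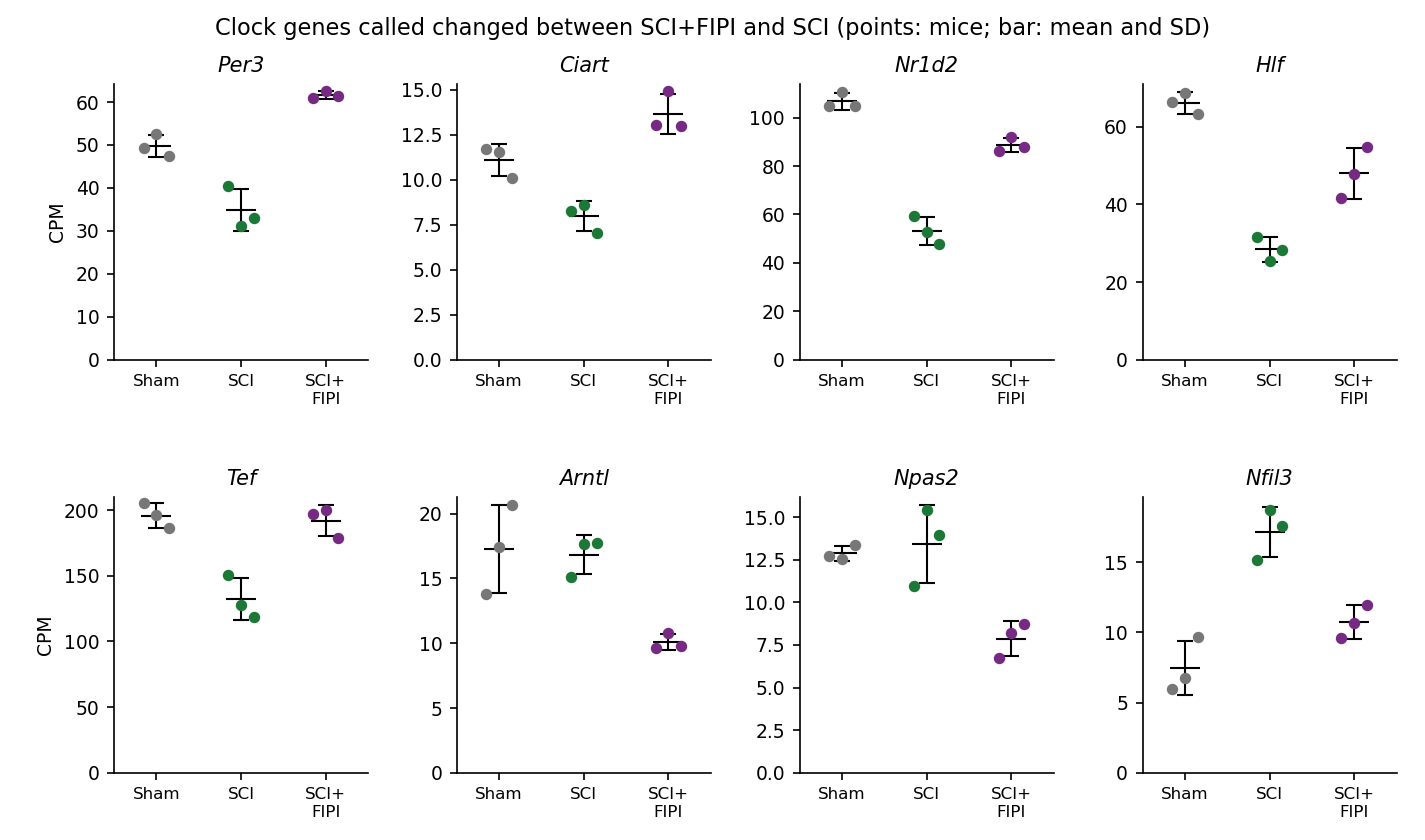
Points are CPM of the 8 called clock genes in single mice, with the mean and SD of each group. Per3, Ciart, Nr1d2, Hlf and Tef are higher in the SCI+FIPI mice than in the SCI mice and Arntl, Npas2 and Nfil3 are lower, with no overlap between these groups in any panel.

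MHC class II presentation gave calls in the lower direction. Class II molecules carry peptides from ingested proteins to the surface of macrophages, activated microglia and B cells. Of 13 tested genes 4 were called lower, H2-Aa, H2-Eb1, H2-Ab1 and Cd74, while 9 were not called, and the list median was -0.41. The class II promoters share an upstream module that ends in a Y box, and those of H2-Aa and H2-Eb1, neighbouring genes on chromosome 17, are printed as before, with capitals marking the Y box (CTGATTGG, which contains a CCAAT box on the other strand), the CRE (TGACGTCA) and CCAAT boxes.
H2-Aa (chr17:34287824-34288073, minus strand): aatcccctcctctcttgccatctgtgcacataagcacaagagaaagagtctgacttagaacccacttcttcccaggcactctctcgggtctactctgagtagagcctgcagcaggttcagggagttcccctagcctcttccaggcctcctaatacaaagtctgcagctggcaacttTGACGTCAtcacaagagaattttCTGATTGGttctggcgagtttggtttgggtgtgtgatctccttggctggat
H2-Eb1 (chr17:34305617-34305866, plus strand): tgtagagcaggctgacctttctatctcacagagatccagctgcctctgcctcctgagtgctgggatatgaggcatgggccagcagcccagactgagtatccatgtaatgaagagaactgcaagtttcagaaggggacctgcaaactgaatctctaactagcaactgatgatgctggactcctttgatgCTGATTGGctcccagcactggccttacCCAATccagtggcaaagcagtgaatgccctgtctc

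The Y box starts 51 bases before the start of H2-Aa and 62 bases before that of H2-Eb1, and H2-Aa has a CRE at 74. Of all 13037 promoters 6.27% held these Y box letters and 3.24% the CRE. Among 93 promoters of genes called lower 8 (8.60%) held the Y box and 1 (1.08%), that of H2-Aa, the CRE. H2-Eb1 had 47.8, 51.7 and 53.1 CPM in SCI mice and 27.7, 27.6 and 32.7 CPM in SCI+FIPI mice (log2 fold change -0.80 ± 0.10 (SE), adjusted p = 0.0017), and the groups stood far apart with little spread in either. H2-Aa had 42.2, 53.7 and 46.96 CPM in SCI mice and 25.1, 26.02 and 30.4 CPM in SCI+FIPI mice (log2 fold change -0.81 ± 0.19 (SE), adjusted p = 0.0299). H2-Ab1 had 56.6, 71.2 and 63.3 CPM in SCI mice and 37.4, 33.7 and 40.01 CPM in SCI+FIPI mice (log2 fold change -0.78 ± 0.15 (SE), adjusted p = 0.0138). The invariant chain gene Cd74 had 69.8, 80.3 and 73.3 CPM in SCI mice and 39.2, 40.5 and 52.7 CPM in SCI+FIPI mice (log2 fold change -0.75, adjusted p = 0.0468), with the third treated mouse the nearest to the vehicle mice. Leaving out 1 mouse never removed the call of H2-Eb1 and removed that of H2-Ab1 without SCI mouse 3 or SCI+FIPI mouse 2. H2-Aa was then called only without SCI mouse 1, and Cd74 only without SCI+FIPI mouse 3. The list's count fell to 1 without SCI mouse 3 or SCI+FIPI mouse 2 and to 2 without SCI mouse 2 or SCI+FIPI mouse 1. Ciita, the class II transactivator and chosen after its values were seen, had 2.81, 3.97 and 4.26 CPM in SCI mice and 2.41, 2.46 and 2.6004 CPM in SCI+FIPI mice (-0.56, adjusted p = 0.0902). In class I presentation none of 19 genes was called, and H2-K1 had a log2 fold change of -0.29.

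Signaling from Fc receptors through Syk and Btk, which couples antibody-coated targets to phagocytosis, was the list with the highest number of falls. Of 25 genes 6 (24.0%) were called lower, Blnk, Syk, Btk, Lyn and Card9 among them. All 25 had a lower level with FIPI, and the median was -0.42. The share called lower was 30.8% in MHC class II presentation and 0.695% over all genes tested. The adaptor Blnk had 44.2, 39.7 and 51.3 CPM in SCI mice and 34.3, 25.5 and 28.6 CPM in SCI+FIPI mice (log2 fold change -0.61 ± 0.14 (SE), adjusted p = 0.0206). Lyn, a Src family kinase, had 75.4, 90.5 and 86.2 CPM in SCI mice and 66.5, 53.4 and 52.9 CPM in SCI+FIPI mice (log2 fold change -0.55 ± 0.10 (SE), adjusted p = 0.00765). Btk had 19.5, 18.8 and 24.2 CPM in SCI mice and 14.8, 12.9 and 14.3 CPM in SCI+FIPI mice (log2 fold change -0.57 ± 0.12 (SE), adjusted p = 0.0112). SCI+FIPI mouse 1 was the highest of the treated mice for these genes but stayed below every vehicle mouse. None of the 25 genes was called without SCI+FIPI mouse 2, and 2 were without SCI mouse 3, 3 without SCI mouse 2 or SCI+FIPI mouse 3, and 8 without SCI mouse 1 or SCI+FIPI mouse 1. Fcgr1 (-0.46, adjusted p = 0.122) and Fcgr2b (-0.52, adjusted p = 0.0529), Fc receptors proper, were not called.

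Monocyte and macrophage genes gave 2 calls of 27, both C-type lectins, Clec10a (-1.01) and Clec4n (-0.65), with a median of -0.45. Clec10a had 3.27, 4.18 and 4.01 CPM in SCI mice and 1.21, 2.63 and 1.85 CPM in SCI+FIPI mice. Clec4n had 11.4, 17.99 and 14.3 CPM in SCI mice and 8.49, 8.86 and 10.4 CPM in SCI+FIPI mice. Neither kept its call with every mouse left out in turn: both lost it without SCI mouse 2, SCI mouse 3 or SCI+FIPI mouse 1, Clec10a also without SCI+FIPI mouse 3 and Clec4n without SCI+FIPI mouse 2. The macrophage marker Cd68 had 623, 664 and 776 CPM in SCI mice and 593, 419.6 and 462 CPM in SCI+FIPI mice (-0.48, adjusted p = 0.295). Adgre1, which encodes F4/80, had 110.2, 123 and 139 CPM in SCI mice and 106, 82.2 and 94.2 CPM in SCI+FIPI mice (-0.40, adjusted p = 0.169). Vehicle and treated mice were apart for both without a call. All 26 genes of lipid-laden and disease-associated phagocytes had a lower level with FIPI and their median was -0.45, but none was called. Apoe had 19509, 17246 and 21718 CPM in SCI mice and 16061, 14388 and 17017 CPM in SCI+FIPI mice (-0.30) and Trem2 had a log2 fold change of -0.23. Without SCI+FIPI mouse 1, 5 of these genes were called lower, and without SCI mouse 1, 2 were.

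Several myeloid genes outside that list, chosen after their values were seen, passed both limits. Stab1, a scavenger receptor of macrophages, had 648, 676 and 832 CPM in SCI mice and 526, 397 and 479 CPM in SCI+FIPI mice (log2 fold change -0.62 ± 0.12 (SE), adjusted p = 0.0119). Trib1, a pseudokinase, had 37.9, 51.8 and 42.7 CPM in SCI mice and 25.8, 26.5 and 31.6 CPM in SCI+FIPI mice (log2 fold change -0.66). Both genes were called in all 6 fits that left out a mouse, as was Ms4a6b, a membrane protein of myeloid and lymphoid cells (-0.78), which the naming rule picked among the largest falls. Spi1, which encodes the myeloid regulator PU.1, had 88.6, 94.9 and 106 CPM in SCI mice and 67.3, 64.2 and 70.7 CPM in SCI+FIPI mice (log2 fold change -0.52) and kept the call only without SCI mouse 1. PU.1 letters (GAGGAAGT) were found in 8 of 93 promoters of genes called lower (8.60%), 5 of 304 of those called higher (1.64%) and 3.61% of all. This is a description of few promoters, with no test, and other motifs were searched as well. Among the 93, NF-kB letters were in 3 (3.23%, against 0.913% of all) and the interferon element in 11 (11.8%, against 8.87%). The TATA box was in 11 (11.8%, against 9.58%) and the class II X box in 1 (1.08%, against 1.14%). Slamf7 (-0.90), Cytip (-0.84) and Rbm47 (-0.78), leukocyte genes among the largest falls, each lost the call without SCI mouse 2, SCI+FIPI mouse 2 or SCI+FIPI mouse 3.

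Chemokine and cytokine genes were also among the calls. Ccl2, the main chemoattractant of monocytes, had 12.4, 20.8 and 14.4 CPM in SCI mice and 6.08, 5.04 and 6.04 CPM in SCI+FIPI mice (log2 fold change -1.47 ± 0.28 (SE), adjusted p = 0.013), with treated mice tight and far below the vehicle mice; the call was lost without SCI+FIPI mouse 2. Its neighbour Ccl7 had 6.71, 13.2 and 8.18 CPM in SCI mice and 4.65, 4.49 and 5.704 CPM in SCI+FIPI mice (-0.92) and was called only without SCI mouse 1 among the 6 fits. These were the 2 called of 38 chemokines and receptors, whose median was -0.32; the count was 8 without SCI mouse 1, 3 without SCI mouse 3, 1 without SCI mouse 2 or SCI+FIPI mouse 3, and 0 without SCI+FIPI mouse 2. Of 32 TNF, IL-1 and IL-6 family genes 3 were called lower. The receptor Il1r1 had 41.8, 63.3 and 56.3 CPM in SCI mice and 34.8, 32.7 and 32.8 CPM in SCI+FIPI mice (log2 fold change -0.69 ± 0.15 (SE), adjusted p = 0.0187). Its decoy Il1r2 had a log2 fold change of -1.50, and Tnf one of -1.02 from levels of 2.01, 4.18 and 3.29 CPM in SCI mice and 2.01, 1.27 and 1.38 CPM in SCI+FIPI mice. Il1r1 lost its call without SCI mouse 3, SCI+FIPI mouse 2 or SCI+FIPI mouse 3; Il1r2 and Tnf lost theirs without SCI mouse 2, SCI+FIPI mouse 2 or SCI+FIPI mouse 3 and in 1 other fit each. Among 22 complement genes C5ar1, the C5a receptor, was called lower (log2 fold change -0.82 ± 0.17 (SE), adjusted p = 0.0239), whereas C1qa (-0.29) and C1qb (-0.23) were not, and C5ar1 lost its call without SCI mouse 2, SCI mouse 3, SCI+FIPI mouse 2 or SCI+FIPI mouse 3.

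Sensors of the innate response had single calls. All 31 Toll-like receptor and NF-kB genes had a lower level with FIPI, with a median of -0.33. Tlr7, the receptor of single-stranded RNA, was called (log2 fold change -0.66 ± 0.17 (SE), adjusted p = 0.0389), with 41.2, 54.5 and 51.2 CPM in SCI mice and 37.4, 28.2 and 27.7 CPM in SCI+FIPI mice. Naip5, a sensor of bacterial flagellin, was the only call of 16 inflammasome genes (-0.51). The integrin Itga4 was the only call of 25 leukocyte adhesion genes (-0.58). Tlr7, Naip5 and Itga4 each lost the call without SCI mouse 2, SCI mouse 3, SCI+FIPI mouse 2 or SCI+FIPI mouse 3. None of 35 interferon-stimulated genes was called; their median was -0.14, and Ifit1 overlapped between groups at 14.8, 20.6 and 7.64 CPM in SCI mice and 17.7, 11.1 and 10.2 CPM in SCI+FIPI mice.

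Lymphocyte and neutrophil genes gave a single call. No gene of the T and NK cell list, with 12 tested, was called, and Cd4 had 2.68, 1.98 and 4.05 CPM in SCI mice and 2.41, 1.99 and 2.26 CPM in SCI+FIPI mice. The immunoglobulin heavy chain gene Ighm was called higher (log2 fold change 0.99 ± 0.17 (SE), adjusted p = 0.0108), with 19.2, 16.7 and 21.1 CPM in SCI mice and 27.8, 41.5 and 43.3 CPM in SCI+FIPI mice, and lost the call without SCI+FIPI mouse 2. The B cell marker Cd79a had 1.47, 0.868 and 0.844 CPM in SCI mice and 0.447, 0.975 and 1.13 CPM in SCI+FIPI mice and overlapped between the groups (-0.31). None of 16 neutrophil granule genes was called, although their median was 0.51. Their summed level was 203.9, 200.7 and 190.5 CPM in the SCI mice and 136.2, 297.0 and 284.6 CPM in SCI+FIPI mice 1, 2 and 3, so that treated mice lay on both sides of the vehicle mice. S100a8 had 12.9, 10.3 and 7.09 CPM in SCI mice and 5.01, 20.6 and 19.5 CPM in SCI+FIPI mice. S100a9 had 17.4, 13.6 and 13.4 CPM in SCI mice and 5.05, 31.2 and 31.9 CPM in SCI+FIPI mice, with the same split among treated mice. Erythroid genes, of which 9 were tested and none called, summed to between 100.8 and 237.4 CPM in the SCI mice and to between 65.5 and 240.1 CPM in the SCI+FIPI mice.

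No lysosomal or cell cycle gene passed both limits. Of 37 lysosomal genes 34 had a lower level with FIPI, and the median was -0.32. An adjusted p under 0.05 was reached by 15 of them, each with a change under the fold limit, and by 9.63% of all genes tested. Ctsa had 743, 724 and 878 CPM in SCI mice and 688, 593 and 643 CPM in SCI+FIPI mice (log2 fold change -0.29 ± 0.08 (SE), adjusted p = 0.0438). Ctsb had 7161, 6835 and 7914 CPM in SCI mice and 6829, 5196 and 5521 CPM in SCI+FIPI mice (-0.32, adjusted p = 0.0674). Of 40 cell cycle genes 38 had a lower level, 8 had an adjusted p under 0.05 and the median was -0.33. In 24 of the 40 every treated mouse lay below all vehicle mice, as in 14.5% of all genes tested. The proliferation marker Mki67 had 67.1, 69.8 and 77.8 CPM in SCI mice and 66.2, 56.3 and 50.8 CPM in SCI+FIPI mice (-0.31). Top2a had 55.7, 64.96 and 65.7 CPM in SCI mice and 55.1, 47.7 and 44.2 CPM in SCI+FIPI mice (-0.34). SCI+FIPI mouse 1 was close to the vehicle mice for both, and without it 6 genes of each list were called lower; without SCI mouse 1, 2 lysosomal and 4 cell cycle genes were. Of 24 p53 target and cell death genes 2 were called lower. Pmaip1, which encodes the proapoptotic protein NOXA, had 7.34, 11.4 and 7.299 CPM in SCI mice and 4.96, 5.001 and 5.12 CPM in SCI+FIPI mice (-0.79). Casp8, the initiator caspase of death receptors, had 29.1, 33.1 and 33.5 CPM in SCI mice and 23.9, 21.8 and 20.6 CPM in SCI+FIPI mice (-0.53). Pmaip1 lost its call without SCI mouse 2 or SCI+FIPI mouse 2, and Casp8 without SCI mouse 2, SCI mouse 3, SCI+FIPI mouse 2 or SCI+FIPI mouse 3. None of 22 ER stress genes was called.

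In lipid metabolism 2 of 33 cholesterol genes were called higher and none was called lower. Insig1, the sterol sensor, had 44.1, 37.3 and 36.9 CPM in SCI mice and 54.9, 63.2 and 54.9 CPM in SCI+FIPI mice (log2 fold change 0.55 ± 0.09 (SE), adjusted p = 0.00595). The call of Insig1 was lost without SCI+FIPI mouse 2. Abcg1, a cholesterol exporter (-0.34, adjusted p = 0.0248), and Soat1, which esterifies cholesterol for storage (-0.44, adjusted p = 0.0112), both chosen after their values were seen, were lower by edgeR's quasi-likelihood test but under the fold limit. Of 77 nuclear genes of oxidative phosphorylation 70 had a higher level with FIPI, with a median of 0.11 and none called, and none was called of 12 mitochondrial genes of that system, 27 genes of glycolysis and lactate transport or 80 ribosomal protein genes.

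Neither gene of the inhibited enzymes was called. Pld1 had 38.4, 34.5 and 34.1 CPM in SCI mice and 29.8, 35.1 and 33.4 CPM in SCI+FIPI mice (-0.12, adjusted p = 0.435). Pld2 had 73.05, 82.1 and 87.03 CPM in SCI mice and 70.8, 66.9 and 78.8 CPM in SCI+FIPI mice (-0.16, adjusted p = 0.19). The groups overlapped for both. FIPI acts on the proteins, so these levels do not check the treatment. Pld5, a family member thought to lack catalytic activity, was the only one of 6 family genes called, with 4.53, 3.85 and 3.67 CPM in SCI mice and 6.35, 7.54 and 6.12 CPM in SCI+FIPI mice (log2 fold change 0.73 ± 0.14 (SE), adjusted p = 0.00765), and it lost the call without SCI+FIPI mouse 2. Among 36 genes of enzymes and receptors of phosphatidic and lysophosphatidic acid, 3 were called higher. Dgkb, a diacylglycerol kinase that makes phosphatidic acid in neurons, had 17.4, 14.5 and 13.3 CPM in SCI mice and 22.4, 24.5 and 20.7 CPM in SCI+FIPI mice (log2 fold change 0.58 ± 0.10 (SE), adjusted p = 0.00474) and was called in all 6 fits that left out a mouse. Plppr1 (0.55) and Dgkg (0.50) kept the call only without SCI mouse 1. Enpp2, which encodes autotaxin, had 269.9, 254 and 238 CPM in SCI mice and 266, 279.7 and 276 CPM in SCI+FIPI mice, overlapping between the groups (0.11).

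Vessel and matrix genes gave a small set of falls. Col4a1 and Col4a2, paired genes of basement membrane collagen IV that overlap on opposite strands, had log2 fold changes of -0.73 and -0.62. Col4a1 had 597, 808 and 820.0 CPM in SCI mice and 521, 431 and 392 CPM in SCI+FIPI mice. Col4a2 had 444, 584 and 587 CPM in SCI mice and 402, 339 and 308 CPM in SCI+FIPI mice. SCI mouse 1 lay nearest to the treated mice for both. Col4a1 lost the call without SCI mouse 2, SCI mouse 3, SCI+FIPI mouse 2 or SCI+FIPI mouse 3, and Col4a2 without SCI mouse 3 or SCI+FIPI mouse 2. Of the 43 collagen genes tested, 3 were called lower and 1 higher, the neuronal collagen Col25a1 (0.57), which was called in all 6 fits. Over all genes tested 0.695% were called lower and 2.36% higher. Rgs5, a pericyte gene, had 267, 307 and 302 CPM in SCI mice and 227, 199 and 190.0 CPM in SCI+FIPI mice (log2 fold change -0.51 ± 0.08 (SE), adjusted p = 0.00412). Sox18, an endothelial transcription factor, had 17.3, 23.3 and 18.1 CPM in SCI mice and 12.2, 14.7 and 13.5 CPM in SCI+FIPI mice (-0.54). Each lost the call in 4 of the 6 fits, SCI mouse 2, SCI+FIPI mouse 2 and SCI+FIPI mouse 3 being common to both. The tight junction gene Cldn5 had 128, 111 and 119 CPM in SCI mice and 76.1, 89.9 and 102 CPM in SCI+FIPI mice and stayed under the fold limit (-0.42, adjusted p = 0.0137). Of 32 matrix proteases and inhibitors Adam8 (-0.76), Mmp11 (-0.63) and Plaur (-0.52) were called lower (9.38%). All 3 calls were lost without SCI mouse 3, SCI+FIPI mouse 2 or SCI+FIPI mouse 3. None of 22 fibroblast and scar genes was called, and Dcn had 312, 269 and 369 CPM in SCI mice and 283, 291 and 395 CPM in SCI+FIPI mice (0.03). Of 41 TGF-beta and BMP signaling genes 1 (2.44%) was called higher and none lower, with a median of -0.10. That share is near the 2.36% of all genes called higher. The called gene was Bmp3, a BMP family ligand, with 3.48, 2.03 and 2.66 CPM in SCI mice and 4.56, 4.75 and 4.49 CPM in SCI+FIPI mice (log2 fold change 0.76 ± 0.19 (SE), adjusted p = 0.0258), and it kept the call only without SCI mouse 1. Tgfb1 had 113, 137 and 151 CPM in SCI mice and 101, 85.5 and 101 CPM in SCI+FIPI mice and was just under the fold limit (-0.48, adjusted p = 0.0154).

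Hox genes, which mark the level of the cord from which tissue was taken, gave 1 call of 31, Hoxb8, a share (3.23%) near the 2.36% of all genes called higher. Hoxb8, a gene of the thoracic and lower cord, had 134, 98.8 and 105 CPM in SCI mice and 161, 162 and 173 CPM in SCI+FIPI mice (log2 fold change 0.56 ± 0.09 (SE), adjusted p = 0.00505), apart in every mouse, and lost the call without SCI mouse 2. The median over the 31 genes was 0.22 and 25 had a higher level with FIPI; whether the cut fell at another level of the cord was not tested. The lists made for tissue outside the cord gave 1 call in each direction among 51 genes, Bglap and Col10a1. That is 1.96% each way, against 2.36% higher and 0.695% lower over all genes. Col10a1 was nearly absent from the Sham mice (0 to 0.192 CPM). Its place on these lists does not tell where its RNA came from, which was not tested. Without mitochondrial, hemoglobin, bone and muscle genes, which left 9 of the 51 tested, the count of calls was 589, of which 567 were among the 572.

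Called genes were also compared by size and position. Protein-coding genes called higher had a median span of 41.0 kb, against 22.8 kb for those called lower and 24.6 kb for all protein-coding genes tested, and 33.7%, 13.1% and 14.9% of them spanned over 100 kb. Their median exonic lengths, 4753, 4027 and 4380 bases, and GC contents, 49.6%, 49.2% and 49.9%, were closer together. With offsets for GC content and exonic length 564 genes were called, of which 510 were among the 572. Of 33 pairs of called genes that are next to each other among the genes tested, 26 moved in the same direction, 20 higher and 6 lower. Since 77.3% of all called genes were higher, many pairs would share a direction without any link between neighbours, and this was not tested. The pairs ranged from overlapping genes, such as Nefm and Nefl, to Pcdh11x and Nap1l3, which lie 1483.9 kb apart. The 6 lower pairs were Ly9 with Slamf7, Ccl2 with Ccl7, H2-Ab1 with H2-Aa, H2-Aa with H2-Eb1, Rhoh with Rbm47 and Col4a1 with Col4a2. Kcnj11 and Abcc8, which encode the pore and the sulfonylurea receptor of ATP-sensitive potassium channels, and Kcnc1 formed a run of 3 on chromosome 7 that was called higher, with log2 fold changes of 0.52, 0.63 and 0.58. Abcc8 was called in all 6 fits that left out a mouse, Kcnc1 in all but that without SCI mouse 3, and Kcnj11 in those without SCI mouse 1 and without SCI+FIPI mouse 3.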

How the data were processed

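Polyadenylated RNA of a spinal cord segment in 9 samples, called mice here, was sequenced, and the deposited table holds raw read counts per Ensembl gene with 1 column per mouse. The authors removed adapter and low-quality sequence before counting; the submitters' processing notes name the build GRCm38 and R 4.2.3, and the aligner, the counter and its strand setting are not given in the sources used here. Counting without a known strand setting can mix reads of overlapping genes.

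Symbols, positions and gene types were matched by gene identifier to GENCODE M21 (52403 of 52550 identifiers). Genes were filtered with filterByExpr by group, which left 18699, and scaled by trimmed mean of M-values (TMM). edgeR 4.0.16 in R 4.3.3 fitted 1 mean per group over the 9 mice, so the Sham mice add to the estimate of spread (6 residual degrees of freedom), and its robust quasi-likelihood test compared SCI+FIPI with SCI. Adjusted p-values are Benjamini-Hochberg over all genes tested. CPM values use TMM-scaled library sizes, and mean log2 CPM is the mean of log2 CPM with a prior count of 2. With 3 mice a group, an exact two-sided permutation test of a single gene cannot go below 0.10, so none was used. The script was tested on simulated data. The labels number 3 samples a group and no source used here states that each is 1 animal, so p-values measure only the spread between these samples, which may be technical.

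The comparison and the 65 gene lists were chosen with earlier results of these data known, and lists are given by counts and medians with no test of their own. Genes were named by rule: in each list up to 5 called genes with the largest change and the first 2 tested, the 20 largest rises and falls among called genes whose mean log2 CPM reached 1 and whose groups were apart, the 6 smallest p-values in each direction, Pld1 and Pld2, and fixed cell type markers; other genes are marked as chosen after their values were seen. Some genes that the rule picks are not reported here. Promoter sequence came from RefSeq's GRCm38.p6 table, matched by symbol; 13037 of the genes tested had an entry.

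Alternatives were other scalings, other filters on low counts, a replicate block, a fit of the 6 injured mice alone, DESeq2 1.42.0, limma 3.58.1 with voom weights, offsets for GC content and exonic length, the removal of mitochondrial, hemoglobin, bone and muscle genes, other fold limits and leaving out each injured mouse in turn.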

Additional observations from a re-analysis of the deposited data

How the results depend on the processing

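Leaving out 1 injured mouse at a time gave between 189 and 1038 called genes, between 166 and 781 higher and between 23 and 257 lower. With SCI mouse 1 and SCI+FIPI mouse 2 both left out, an alternative chosen after seeing the data because these mice moved the count most, 638 genes were called, 512 higher and 126 lower. Counts also moved by more than 1.5 times with no filter on low counts (239 lower, of 776 called among 33112 genes), with no limit on the fold change (1800 called, 1130 higher and 670 lower), and with a limit of 1 (65 called, 41 higher and 24 lower). When edgeR tested against a log2 fold change of 0.5 rather than against 0, 0 genes were called, 0 higher and 0 lower, with 402 at an unadjusted p under 0.05. Other settings gave between 534 and 648 called genes, with DESeq2 on the 9 mice at the top. No source used here states that same-numbered mice are paired. The deviations of same-numbered SCI and SCI+FIPI mice from their group means correlated at -0.07, 0.03 and 0.07. Those of differently numbered mice correlated at between -0.108 and 0.084. With 3 mice a group these values cannot decide whether the numbers mark a shared batch. The fit with the replicate block called 555 genes, of which 510 were among the 572. Of the 572 genes, 327 were called in all 13 settings that keep every injured mouse and both limits, some of which leave out the Sham mice. The test against a log2 fold change of 0.5, which called 0 genes, and the other fold limits are not among these 13. Values near 0 changed sign, and the cause was not tested. With 1 mouse left out at a time, the median log2 fold change of the B and plasma cell list lay between -0.21 and 0.15, at its lowest without SCI+FIPI mouse 2. In those fits log2 fold changes of genes that were not called ran from -0.11 to 0.059 for Bdnf, from -0.57 to 0.0039 for Cd79a, from -0.043 to 0.078 for Cry1, from -0.14 to 0.15 for Dcn, from -0.44 to 0.21 for Ifit1, from -0.063 to 0.049 for Nr3c1, from -0.013 to 0.095 for Nt5dc1 and from -0.081 to 0.13 for P2ry12. Without both SCI mouse 1 and SCI+FIPI mouse 2 they were 0.095 for Bdnf, -0.098 for Cry1 and -0.097 for P2ry12. With offsets for GC content and length they were -0.0095 for Dcn and -0.021 for P2ry12, and with the replicate block added -0.032 and -0.020. At a mean log2 CPM under 0 the median SE of a log2 fold change was 0.448, against 0.0648 over 6, so that small changes of rare transcripts were not detectable at this depth.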

Other observations

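Transcripts outside the protein-coding set followed the same limits. Of 689 lincRNAs tested 15 were called higher and 4 lower, and of 665 antisense transcripts 13 were called higher and 3 lower. These counts are no more than the shares over all genes tested, 2.36% higher and 0.695% lower, would give. Ribosomal protein genes, of which 80 were tested, had a median log2 fold change of -0.03, and the 12 mitochondrial genes of oxidative phosphorylation had one of 0.14. None of 21 genes of iron handling and ferroptosis or of 24 genes of prostaglandin and leukotriene synthesis was called. Hmox1, which degrades heme, had 213, 381 and 274 CPM in the SCI mice and 222, 182 and 176 CPM in the SCI+FIPI mice, with SCI mouse 1 below SCI+FIPI mouse 1, and it was not called (edgeR's quasi-likelihood test, adjusted p = 0.173).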
